A study of Mus musculus with 32 samples.

Results

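The comparison described here sets BCL11b+ID2+ against BCL11b-ID2+ cells among the DN1 thymocytes of the E19.5 mouse thymus. It rests on 6 of the 32 bulk RNA-seq libraries of the series, namely libraries 1, 2 and 4 of each gate, chosen by their labels, while the other 12 libraries of E19.5 lent their spread to the fit. Both gates came from embryonic thymus of mice that the labels call 5x polychromILC, with no treatment named, and both were sorted as DN1 and positive for ID2. They differ in BCL11b alone by label. A further 4 populations of the same stage were BCL11b+ID2- DN1, BCL11b-ID2- DN1, DN1 low for both reporters and DN2, with 3 libraries each. The labels do not tie the libraries of a gate to different animals, and the p-values therefore reflect library-to-library spread, which may be technical.

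DN1 is a name for the earliest thymocytes without CD4 and CD8. BCL11b is a transcription factor that thymocytes switch on when they commit to the T-cell lineage, and group 2 innate lymphoid cells (ILC2s) need it too. ID2 holds E proteins in check and is high in innate lymphoid cells and natural killer (NK) cells, which use T-box factors such as T-bet and Eomes rather than BCL11b. ILC2s answer IL-33, IL-25 and lipid mediators and make type 2 cytokines, whereas NK cells and group 1 innate lymphoid cells kill with granzymes and make interferon gamma.

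Values are normalised counts, that is, reads per gene divided by a size factor for each library, and differences are on the log2(value + 1) scale, which understates those of genes with few reads. Reads per library came to 3111749, 5244101 and 9178293 in BCL11b+ID2+ and to 7659239, 5682450 and 9498133 in BCL11b-ID2+. Transcripts of the mitochondrial genome took 43.4, 45.0 and 60.2% of reads in the first gate and 36.1, 35.6 and 45.7% in the second. This share was higher in BCL11b+ID2+ for each library number, although the ranges overlapped, and its part in the results below was not tested beyond a rescaling without those genes, after which BCL11b+ID2+ against BCL11b-ID2+ gave 811 called genes. Correlations of log2 values were 0.845 to 0.909 for the 6 pairs of libraries within a gate and 0.765 to 0.813 for the 9 pairs across the gates.

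The sorting genes were read first. Bcl11b (chromosome 12, 107910403 to 108003602, GRCm38) stood at 409, 539 and 596 in BCL11b+ID2+ and at 22.2, 39.2 and 18.9 in BCL11b-ID2+. Every BCL11b+ID2+ library lay above every BCL11b-ID2+ library, by 19.3-fold in the means (log2 difference 4.27 ± 0.50 SE, limma adjusted p = 4.4e-06). Id2 (chromosome 12, 25093799 to 25097140) stood at 961, 1174 and 1221 against 1541, 1278 and 1495. The Id2 difference of -0.36 ± 0.74 did not pass (adjusted p = 0.904). The BCL11b label therefore matched its transcript in all 6 libraries, and both gates carried Id2.

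A gene was tested where its value reached 10 in at least 3 of the 18 libraries of the stage, which kept 13840 of 26244 genes. Of these, 835 (6.03%) passed an adjusted p of 0.05 in limma, 437 higher (3.16%) and 398 lower (2.88%) in BCL11b+ID2+. The libraries of the gates did not overlap for 832 of these, against 3092 (22.3%) of all genes tested. The median log2 difference was 3.44 among genes called higher, -3.47 among genes called lower and -0.04 over all genes. The differences called ran from 0.40 in absolute size to extremes of 7.90 and -9.15. In bulk samples, fewer cells of a type and less RNA per cell cannot be told apart, and that holds for each difference given here.

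**Figure D1:**
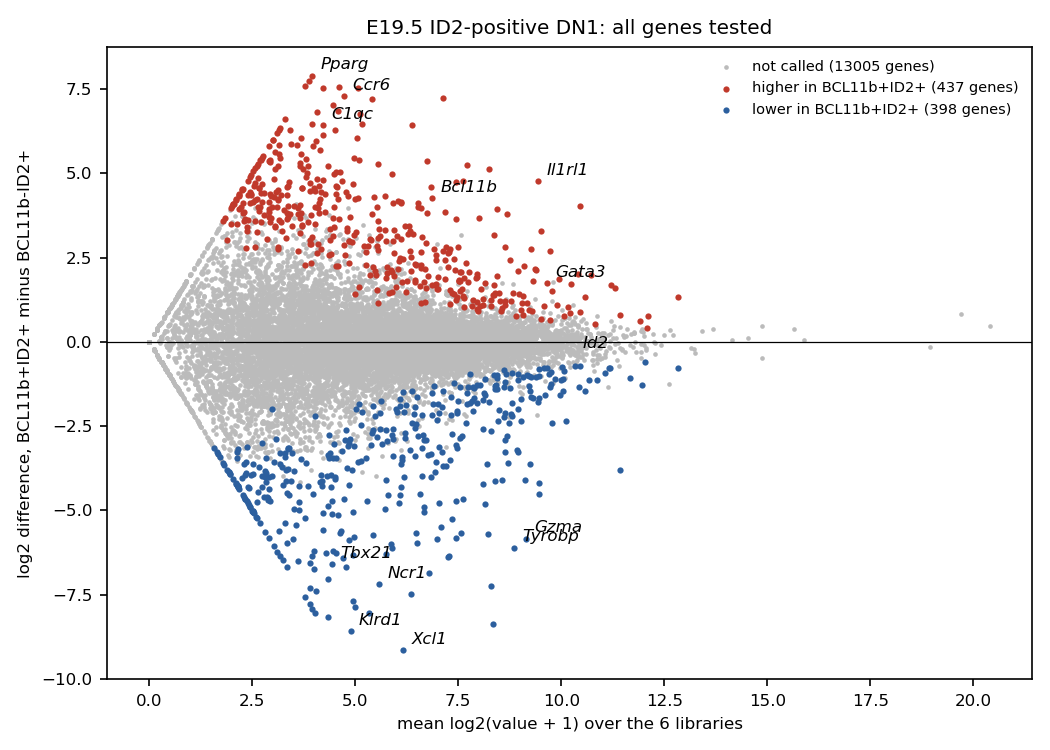
Each point is 1 of the 13840 genes tested, with its mean log2(value + 1) over the 6 libraries on the x axis and its log2 difference (BCL11b+ID2+ minus BCL11b-ID2+) on the y axis. Red marks the 437 genes called higher and blue the 398 called lower, with Il1rl1, Gata3 and Pparg above 0, Gzma, Xcl1 and Tyrobp below 0 and Id2 near 0.

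Pparg, Ltb4r1 and Mrc1 had the largest differences on the side that was higher in BCL11b+ID2+. Pparg, a nuclear receptor for fatty acids (chromosome 6, 115360951 to 115490399), stood at 201, 334 and 200.5 in BCL11b+ID2+ and had no reads in BCL11b-ID2+, at least 376-fold higher against a floor of 3 reads over the gate (log2 difference 7.90 ± 1.12 SE, adjusted p = 4.98e-05). Ltb4r1, a receptor for leukotriene B4, held 340.0, 200.1 and 144 against no reads, at least 349.8-fold (adjusted p = 2.51e-06). Mrc1, the mannose receptor of tissue macrophages, held 285, 109 and 222 against no reads, at least 315-fold (adjusted p = 1.43e-06). No BCL11b-ID2+ library held a read of these genes. Ccr6, a chemokine receptor of mucosal lymphocytes, stood at 189, 443 and 421 against 1.80, 0 and 2.36 (253-fold, adjusted p = 2.01e-06). Tlr1, a receptor for bacterial lipopeptides, stood at 351, 560.5 and 484 against at most 5.99 (195-fold, adjusted p = 3.56e-06). The growth factor gene Igf1 stood at 328, 202 and 242 against 0.599, 0 and 0.590, a ratio of 649 with a 95% counting interval of 179 to 5370.0.

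Hlf, a PAR bZIP transcription factor, stood at 1684, 1989.9 and 1479 against 11.4, 34.5 and 2.36, a difference of 107-fold (adjusted p = 4.99e-05). Calca, which encodes the neuropeptide CGRP, stood at 867, 196 and 274 against 7.18, 0 and 3.54 (125-fold, adjusted p = 4.16e-05), so library 1 was far above the other BCL11b+ID2+ libraries. Vcam1, an adhesion ligand for integrins, ranged from 291 to 805 against 0.599 to 11.5 (127-fold). Slc40a1, the iron exporter ferroportin, ranged from 138 to 266 in BCL11b+ID2+, a ratio of 285 to the other gate (95% counting interval 97.2 to 1387). The polarity gene Pard3 and the complement gene C1qc were 356-fold and 136-fold higher. Tmem26 and Pxdc1 were 126-fold and 78.0-fold higher, and Tnfrsf19, a TNF receptor family member, was 126-fold higher (adjusted p = 0.000155) but missed the threshold with DESeq2 (adjusted p = 0.103).

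Xcl1, Klrd1 and Gzmc had the largest differences on the other side. Xcl1, a chemokine that draws cross-presenting dendritic cells (chromosome 1, 164931644 to 164935527), stood at 1.78, 8.84 and 0 in BCL11b+ID2+ and at 979.5, 1871 and 2755 in BCL11b-ID2+. The gates were 528-fold apart (log2 difference -9.15 ± 0.98 SE, adjusted p = 1.57e-06). Gzmc, a granzyme of tissue-resident killer cells, stood at no more than 17.8 against 5644, 5034 and 7045, 351-fold lower (adjusted p = 8.28e-08). Ccl1, a ligand of the receptor CCR8, had 0, 0 and 0.659 against 222, 458 and 387, a ratio of 1617 with a 95% counting interval of 289.9 to 63923. Ifitm1, an interferon-inducible membrane gene, stood at 10.7, 37.6 and 35.6 against 3359, 3776 and 4422 (138-fold lower, adjusted p = 2.71e-08).

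Lectin-like receptors of NK cells made up much of the remaining ranking. Klrd1, which encodes CD94, had 0, 1.11 and 0.659 against 486, 465 and 854, a ratio of 1023 with a counting interval of 283 to 8449.8. Klra5, of the Ly49 family, had no reads against 238, 259 and 301 and was at least 225-fold lower. Klrb1c, the gene of the NK1.1 antigen, stood at 1.78, 1.11 and 38.9 against 1148, 1062 and 1080.0 (78.7-fold lower), with library 4 of BCL11b+ID2+ above the other libraries of that gate. Reads of these similar receptor genes may be divided among their members. Cd244a and Sh2d1b1, a SLAM-family receptor and an adaptor that serves it, were lower by ratios of 319 and 288 (counting interval of Sh2d1b1 98.5 to 1398). The carbonic anhydrase gene Car2 stood at 0, 4.42 and 0.659 against 531, 394 and 539 (288-fold lower). Fgd5, Pdzk1 and the prostaglandin E receptor gene Ptger3 had no reads in BCL11b+ID2+ and were at least 205-fold, 202-fold and 167-fold lower. Gpr141 and Klrb1a had 1 BCL11b+ID2+ library with reads, with ratios of 848 (counting interval 152 to 33535) and 578 (103 to 22841).

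**Figure D2:**
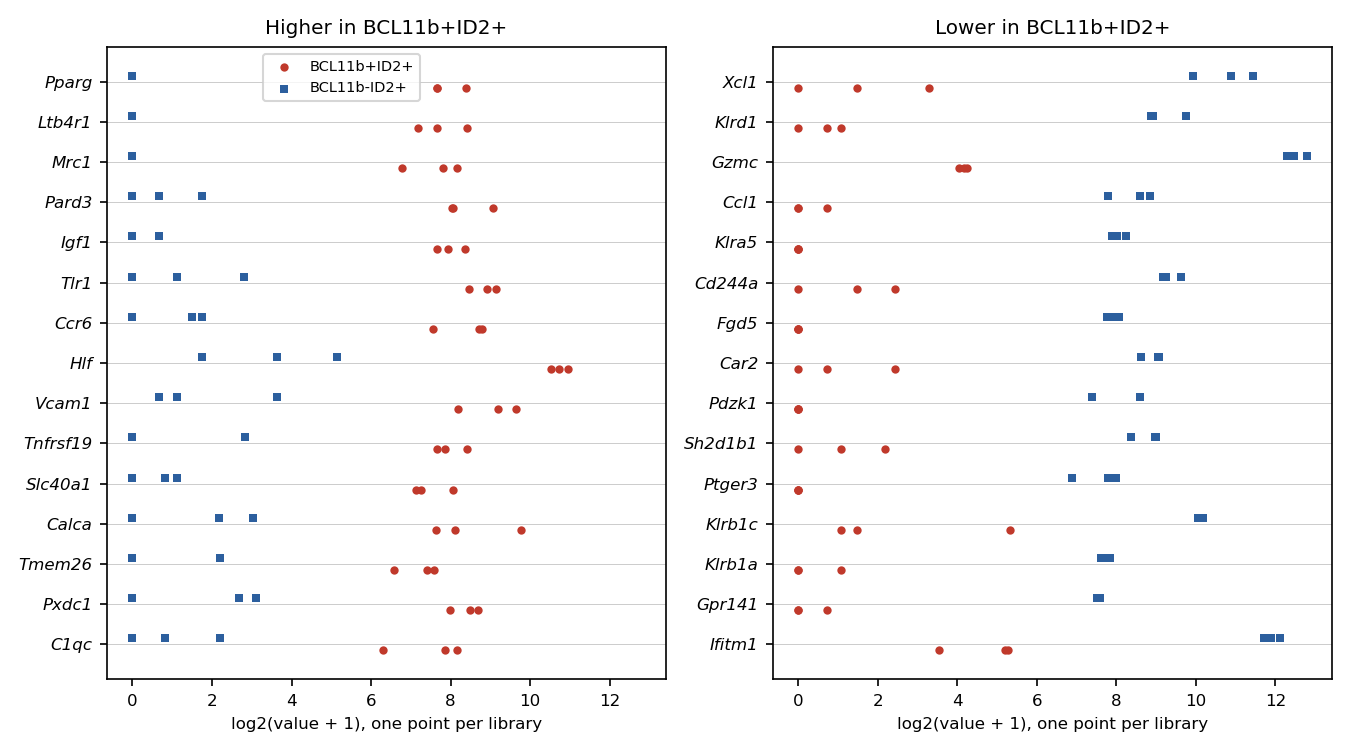
Log2(value + 1) of the 15 genes that ranked first in each direction is on the x axis, with 1 row per gene and 1 point per library, red circles for BCL11b+ID2+ and blue squares for BCL11b-ID2+ (3 libraries each). The 30 genes were ranked among those whose libraries do not overlap between the gates, so the gap between the groups of points was a condition of entry. The BCL11b-ID2+ points of Pparg, Ltb4r1 and Mrc1 and the BCL11b+ID2+ points of Klra5, Fgd5, Pdzk1 and Ptger3 lie at 0.

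Promoters were searched for letters that GATA factors (AGATAA), ROR factors (AGGTCA) and T-box factors (AGGTGTNA) are known to bind, on both strands, in the 250 bases before each RefSeq start (GRCm38.p6). The following are shown because Il1rl1, Ccr6 and Gzmc are a receptor, a homing gene and a granzyme on which the results turn, with the matched letters in capitals and each sequence written 5′ to 3′ on the strand of its gene.
Il1rl1, chr1:40429320-40429569, plus strand: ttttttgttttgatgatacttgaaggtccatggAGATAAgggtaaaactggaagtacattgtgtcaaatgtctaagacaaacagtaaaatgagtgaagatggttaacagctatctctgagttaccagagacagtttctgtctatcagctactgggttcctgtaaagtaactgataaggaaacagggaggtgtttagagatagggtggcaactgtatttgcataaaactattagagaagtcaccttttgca
Ccr6 upstream start, chr17:8235793-8236042, plus strand: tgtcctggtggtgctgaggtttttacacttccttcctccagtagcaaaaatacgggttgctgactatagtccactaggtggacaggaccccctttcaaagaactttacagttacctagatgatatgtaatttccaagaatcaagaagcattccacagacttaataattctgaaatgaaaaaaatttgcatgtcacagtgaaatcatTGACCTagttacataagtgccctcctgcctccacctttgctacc
Ccr6 downstream start, chr17:8242276-8242525, plus strand: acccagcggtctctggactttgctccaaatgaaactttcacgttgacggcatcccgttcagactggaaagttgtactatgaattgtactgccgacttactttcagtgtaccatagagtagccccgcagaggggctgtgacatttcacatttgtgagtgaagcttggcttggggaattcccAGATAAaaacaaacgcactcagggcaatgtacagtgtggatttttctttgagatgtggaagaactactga
Gzmc, chr14:56234658-56234907, minus strand: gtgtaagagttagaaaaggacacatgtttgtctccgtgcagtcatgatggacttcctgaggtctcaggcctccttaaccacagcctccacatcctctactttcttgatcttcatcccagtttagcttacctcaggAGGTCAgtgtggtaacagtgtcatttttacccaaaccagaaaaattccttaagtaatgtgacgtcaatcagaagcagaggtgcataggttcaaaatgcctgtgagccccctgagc
The Il1rl1 promoter and the downstream Ccr6 promoter each held 1 GATA match, beginning 217 and 70 bases before the start. The upstream Ccr6 promoter and the Gzmc promoter each held 1 ROR match, 44 and 115 bases before it. These matches describe letters, not bound sites. AGATAA was in 8.2% of 427 promoters of genes called higher and in 8.2% of 413 promoters of genes called lower, beside 6.2% of the 11807 promoters of genes tested and 3281 of all 32851 promoters of that length. AGGTCA was in 14.8% and 9.2% of those of called genes, in 10.8% of those of genes tested and in 4607 of all. AGGTGTNA was in 1.4% and 2.2%, in 2.0% and in 881. No test was made of these shares. RefSeq held a promoter for 313 of the 437 genes called higher and for 303 of the 398 called lower, some with several starts.

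Of 20 regulators shared by T cells and ILC2s, all tested, 10 were called higher in BCL11b+ID2+, 1, Tcf7, was lower and 9 did not pass. Bcl11b, on which the gates were sorted, is among the 10, so its call was set by the sort. Counts from this and later lists stand beside 3.16% of all genes tested called higher and 2.88% called lower. Gata3, the master regulator of both lineages, stood at 1526, 1678 and 1258 against 433, 484 and 402 (3.38-fold, adjusted p = 2.87e-05). Rora, which ILC2s need, stood at 1446, 1456 and 1285 against 272, 396 and 279.9 (4.42-fold, adjusted p = 0.000903). Neither pair of ranges overlapped. Maf, a regulator of type 17 and gamma-delta cells, was 4.34-fold higher (adjusted p = 0.000117) and Runx1, a partner of CBF-beta, 2.67-fold higher (adjusted p = 1.38e-05). Bmp7, a growth factor gene of the same list, was higher at 71.9 to 98.4 against 0 to 0.768, and Gfi1, a zinc-finger repressor, at 12.2 to 39.6 against 0.599 to 2.95.

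The Wnt-effector pair moved in opposite directions. Tcf7, which encodes TCF-1, was lower at 936, 884 and 603 against 1738, 1443 and 1220.0 (log2 difference -0.87 ± 0.22 SE, adjusted p = 0.015). Its relative Lef1 was higher at 249, 226 and 189 against 66.5, 33.0 and 50.8 (2.17 ± 0.56, adjusted p = 0.0183). Both calls, and that of Gfi1, were sensitive to single libraries: Tcf7 missed the threshold without library 4 of BCL11b+ID2+ (adjusted p = 0.122) or library 1 or 2 of BCL11b-ID2+ (0.0952 and 0.052). Lef1 missed it without library 1 or 2 of BCL11b+ID2+ (0.072 and 0.0612) or library 2 or 4 of BCL11b-ID2+ (0.107 and 0.0522), and Gfi1 without library 1 or 4 of the former (0.0643 and 0.17) or 1 or 2 of the latter (0.123 and 0.0844), with a pseudocount of 8 (0.136) or with the 6 libraries alone (0.0695). Ets1 (0.35), Satb1 (0.47) and Ikzf1 (-0.44) had small log2 differences that did not pass.

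Among 18 regulators of the NK lineage tested, 4 were lower, 1 was higher and 13 did not pass. Tbx21, which encodes T-bet, stood at 3.56, 0 and 1.32 against 129, 257 and 287 (138-fold lower, adjusted p = 4.99e-05), and Eomes at 3.56, 0 and 1.32 against 48.5, 37.6 and 67.3 (31.4-fold lower, adjusted p = 0.00203). Both T-box genes were therefore near 0 in every BCL11b+ID2+ library. Zfp683, the tissue-residency factor Hobit, was 29.5-fold lower (adjusted p = 0.0103), a call that was lost without library 1 of BCL11b+ID2+ (adjusted p = 0.0521) or library 4 of BCL11b-ID2+ (0.0594). Ikzf3, the Ikaros-family factor Aiolos, was the member called higher, at 5808, 4129 and 3219.6 against 1323, 1414 and 1205 (3.34-fold, adjusted p = 0.00203). Nfil3 (-0.29, adjusted p = 0.949), Tox (-0.30, adjusted p = 0.801) and Runx3 (-1.16, adjusted p = 0.0555), which act in innate lymphoid or NK development, did not pass.

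Surface and receptor genes of ILC2s formed the list with the most genes called higher, 14 of 28 tested out of 30. In this list 1 gene was lower, and the median log2 difference was 2.44. It holds receptors for alarmins, lipids and neuropeptides, and also other surface genes such as Icos, Ly6a and Thy1. Il1rl1, which encodes the IL-33 receptor, stood at 3187, 3755 and 3931 against 111, 134 and 151 (27.4-fold, log2 difference 4.77 ± 0.70 SE, adjusted p = 7.88e-05). Il17rb, the IL-25 receptor, stood at 703, 511 and 494 against 34.7, 77.5 and 3.54 (14.7-fold, adjusted p = 9.78e-05). Icos, a costimulatory receptor of ILC2s and T cells, stood at 112 or more against 8.38, 12.3 and 10.6 (15.4-fold, adjusted p = 0.00543). In each of these the lowest BCL11b+ID2+ library was above the highest BCL11b-ID2+ library. Nmur1, the neuromedin U receptor, held 48.1 or more against no reads and was at least 102-fold higher (adjusted p = 3.98e-05). Ly6a, the gene of the Sca-1 antigen, was 6.67-fold higher (adjusted p = 0.000144). Thy1 was the member called lower, at 1100.3, 1187 and 1481 against 2363, 3063 and 2877 (-1.14 ± 0.26, adjusted p = 0.00659). Klrg1, a marker of mature ILC2s, stood at 33.6 to 44.2 against 1.54 to 24.2 and did not pass (adjusted p = 0.244).

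Products of type 2 cells were less uniform than the ILC2 surface and receptor genes. Of 13 such genes tested out of 19 in the table, 2 were higher and 2 lower. Il4 was higher at 21.4, 32.1 and 36.3 against 0, 0 and 1.77 (adjusted p = 0.0061), though not with edgeR (adjusted p = 0.103). Il13 stood at 80.1, 398 and 413 against 89.8, 45.3 and 92.7, so library 1 of BCL11b+ID2+ lay within the other gate, and the difference of 1.70 ± 1.34 did not pass (adjusted p = 0.665). Il5, Areg and Csf2 were below the filter, with Il5 read in 1 of the 6 libraries at 9.23. Arg1, an arginase of ILC precursors and ILC2s, stood at 285, 376 and 391 against 49.7, 39.9 and 47.8, yet 2.90 ± 0.93 fell short of the threshold (adjusted p = 0.0697). Fgl2, Furin and Tph1 had log2 differences of 0.62, 0.60 and 0.83 that did not pass.

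The lipid mediator genes called higher were receptor genes, but the receptor gene Ptger3 was among those called lower. Of 15 tested out of 20 in the table, 4 were higher and 2 lower, with a median of 2.63. Cysltr1, a receptor for cysteinyl leukotrienes, stood at 1068, 1297 and 1538 against 53.3, 12.3 and 53.7 (32.7-fold, adjusted p = 7.2e-06). Ptgir, the prostacyclin receptor, stood at 233, 170.2 and 202 against 0, 16.1 and 0 (37.5-fold, adjusted p = 0.000401). Ptgdr2, the prostaglandin D2 receptor CRTH2, stood at 196, 184 and 139 against 19.2, 26.9 and 16.5 (8.29-fold, adjusted p = 0.0278), a call lost without any 1 of the 6 libraries (adjusted p = 0.0599 to 0.104). Among enzymes, Hpgds, the prostaglandin D synthase, stood at 51.6 to 63.3 against 6.50 to 16.2 (adjusted p = 0.257), and Ptgs1 at 71.9 to 189 against 3.84 to 29.3 (adjusted p = 0.202). Alox5ap, which hands arachidonic acid to 5-lipoxygenase, was lower at 10.7, 9.95 and 26.4 against 58.1, 123 and 77.4 (adjusted p = 0.0408). That call was lost without library 1 or 2 of BCL11b+ID2+ (0.134 and 0.151), without library 1, 2 or 4 of BCL11b-ID2+ (0.0652, 0.198 and 0.11), and with scaling that leaves out mitochondrial genes (0.0515).

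NK receptors were the list with the most genes called lower, 21 of 24 tested out of 26 in the table, with 1 higher and a median of -4.89. In either direction edgeR called 17 of the 24 and DESeq2 19. Klrc2, Klrc3 and Klri1 were lost with both tools, and Crtam and Cd200r4 with edgeR. Fcgr3 was lost without any 1 of the 6 libraries and without a filter. Ncr1, the activating receptor NKp46, stood at 1.78, 2.21 and 5.94 against 450.2, 597 and 698 (176-fold lower, adjusted p = 2.41e-06). Klrk1, which encodes NKG2D, stood at 116, 123 and 121 against 1272, 1423 and 1712 (12.3-fold lower, adjusted p = 0.00313). Klrb1b, an inhibitory lectin, stood at 85.5, 96.2 and 87.7 against 1866, 1479 and 1373 (17.5-fold lower, adjusted p = 0.00179). Klrk1 and Klrb1b kept 85.5 or more in every BCL11b+ID2+ library. Klrc1, the NKG2A gene, was 69.2-fold lower and Slamf7, a SLAM receptor, 58.2-fold lower. Slamf6 was the member called higher, at 73.0, 11.1 and 79.1 against 4.79, 0.768 and 0.590 (26.5-fold, adjusted p = 0.00404). Cd96, an adhesion receptor shared with T cells, was lower by 2.05-fold at 434, 578 and 399 against 1027, 836 and 1029 (adjusted p = 0.0356). The Cd96 call was lost without library 1 or 4 of BCL11b+ID2+ (0.116 and 0.154) or library 1, 2 or 4 of BCL11b-ID2+ (0.126, 0.0657 and 0.13). Cd226 (-1.34, adjusted p = 0.414) and Tigit (-2.87, adjusted p = 0.17) did not pass.

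Receptor signalling adaptors moved both ways. Tyrobp, the DAP12 adaptor of activating NK receptors, stood at 78.3, 34.3 and 61.3 against 2958, 4051 and 4771 (67.7-fold lower, log2 difference -6.11 ± 0.48 SE, adjusted p = 1.07e-08). Fcer1g, the Fc receptor gamma chain, stood at 185, 119 and 144 against 3010.4, 3478 and 3620.3 (22.5-fold lower, adjusted p = 1.57e-06). Each fell far outside the range of the other gate. The phospholipase C-gamma genes moved in opposite directions: Plcg1, the T-cell form, was higher at 229.7, 172 and 184 against 5.39, 16.9 and 7.68 (19.6-fold, adjusted p = 3.46e-07). Plcg2, the form of NK, B and myeloid cells, was lower at no more than 61.3 against 240.1, 303 and 317 (6.65-fold, adjusted p = 0.00175). Themis, a T-cell receptor signalling protein, was 4.29-fold higher (adjusted p = 0.00424), and the kinase gene Lck was 2.63-fold lower (adjusted p = 0.00146). Zap70 (0.08) and Fyn (0.44), kinases of the same pathway, had log2 differences that did not pass. In total 3 of 22 adaptor genes were higher and 5 lower.

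Cytotoxic genes gave calls in 1 direction. Of 14 tested out of 17 in the table, 8 were lower and 0 higher, with a median of -2.78. Gzma stood at 71.2, 48.6 and 113 against 3913, 3308 and 5961 (56.5-fold lower, adjusted p = 4.07e-11), and Gzmb at 90.8, 26.5 and 100.2 against 1015, 1093 and 1483 (16.5-fold lower, adjusted p = 0.000258). Nkg7 and Ctsw, granule genes of killer cells, were 18.6-fold and 17.2-fold lower, and Tnfsf10, the death ligand TRAIL, was 12.1-fold lower. Prf1, which encodes perforin, stood at 28.5, 48.6 and 25.7 against 80.8, 121 and 83.3. The perforin ranges did not overlap, but the difference of -1.48 ± 1.19 did not pass (adjusted p = 0.675). Reads of granzyme genes that lie in 1 cluster may be shared.

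Type 1 cytokine and chemokine genes followed, 5 of 13 tested being lower and 0 higher. Ifng, the interferon gamma gene, had 0, 0 and 2.64 against 120.3, 199 and 188 (192-fold lower, adjusted p = 1.74e-05), although DESeq2 did not call it (adjusted p = 0.0794). Ccl5 stood at 26.7, 70.8 and 77.8 against 1429, 1357 and 1802 (26.2-fold lower, adjusted p = 0.000253), and Ccl4 had no reads against 27.6 to 40.2. Tnf (-1.12, adjusted p = 0.646), Ltb (0.34, adjusted p = 0.892) and Tgfb1 (0.02, adjusted p = 0.992) did not pass.

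Several genes of type 3 and type 17 cells were higher, 5 of 18 tested with 1 lower and a median of 0.89. Il23r stood at 114, 81.8 and 80.5 against 0.599, 0.768 and 2.36 (74.1-fold, adjusted p = 0.000248). Kit, the stem cell factor receptor, stood at 1216, 1135 and 1251 against 395, 172 and 233 (4.51-fold, adjusted p = 1.21e-05). The cytokine genes of such cells were near 0 in both gates: Il17a was read in 1 of the 6 libraries at 7.74, and Il22 reached 7.74 and no more. Cxcr5, a follicular homing receptor also used by lymphoid tissue inducer cells, was lower at 0 to 2.21 against 11.5 to 41.3. Tnfsf11, which encodes RANKL, stood at 51.4 to 67.7 against at most 16.5 and fell short (adjusted p = 0.0643).

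The chains of the IL-2 receptor moved in opposite directions. Il2ra, the alpha chain CD25, stood at 2626, 2259 and 2038 against 247, 217 and 237 (9.88-fold higher, adjusted p = 3.71e-07). Il2rb, the beta chain shared by IL-2 and IL-15, stood at 1175, 766 and 439 against 10214, 9933 and 10494 (12.9-fold lower, adjusted p = 3.71e-07). The common gamma chain gene Il2rg stood at 1588, 2100.5 and 1807 against 1864, 1958 and 1972 (-0.09 ± 0.17, adjusted p = 0.9). Il7r, the receptor of the survival cytokine IL-7, was 3.03-fold higher at 5229, 3827 and 4333 against 1759.6, 1288 and 1368 (adjusted p = 0.00241). Il9r was 6.12-fold higher (adjusted p = 0.00836), except without library 1 of BCL11b-ID2+ (adjusted p = 0.0598). Il12rb2, of the IL-12 receptor, was lower at 11.1 to 34.3 against 167 to 286 (11.1-fold, adjusted p = 0.00639), while Il18r1 (-1.06, adjusted p = 0.151) and Il18rap (-1.23, adjusted p = 0.161) did not pass. Il6ra and Il6st, both chains of the IL-6 receptor, were 24.2-fold and 8.81-fold higher. Cish, a feedback gene of STAT5, stood at 545, 733 and 462 against 91.0, 66.8 and 39.6 and fell just short (adjusted p = 0.0511). Tnfrsf25, the receptor DR3 for the TNF-family ligand TL1A, was 21.2-fold higher at 116 to 164 against 4.13 to 8.98 (adjusted p = 0.000572).

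T-cell receptor genes were transcribed in both gates, and their members diverged. Of 22 genes of the receptor complex, 5 were higher and 2 lower. Cd3e stood at 1018, 1044 and 945 against 172, 224 and 164 (5.37-fold higher, adjusted p = 4.39e-06), whereas Cd3g stood at 527, 548 and 521 against 1162, 1450.3 and 1433 (2.53-fold lower, adjusted p = 0.0245). Cd3d (-0.63, adjusted p = 0.66) and Cd247, the zeta chain (-0.15, adjusted p = 0.931), did not pass. The Cd3g call was lost without library 1, 2 or 4 of BCL11b+ID2+ (0.073, 0.0661 and 0.078) or library 2 or 4 of BCL11b-ID2+ (0.1 and 0.0913). Cd2, an adhesion receptor, was 6.04-fold lower at 80.1, 154 and 154 against 742, 767 and 834 (adjusted p = 0.00118). Trbc1 and Trbc2, the beta-chain constant genes, had log2 differences of 0.62 (adjusted p = 0.0602) and 0.17 (adjusted p = 0.733), and Rag1 stood at 194 to 304 against 89.8 to 265 (adjusted p = 0.512).

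Of the gamma-delta genes, 7 of 19 tested out of 20 in the table were higher and 0 lower, with a median of 0.99. Tcrg-C1, a gamma-chain constant gene, stood at 1494, 1494 and 1577 against 103, 125 and 99.2 (13.9-fold, log2 difference 3.80 ± 0.22 SE, adjusted p = 6.85e-11). The gates were far apart beside the range within either. Trdc, the delta-chain constant gene, stood at 306, 412 and 293 against 92.2, 43.0 and 57.9 (5.24-fold, adjusted p = 2.22e-06), and Tcrg-C2 was 4.48-fold higher (adjusted p = 0.000143). The means of Tcrg-C1 and Tcrg-C2 in BCL11b+ID2+, 1522 and 119.7, lay below those in BCL11b+ID2- DN1 (1865 and 1759.9). They were also below those in DN1 low for both reporters (2086 and 1131) and in DN2 (3172 and 2159.9). In BCL11b-ID2- DN1 the means were lower, 354 and 64.4. Similar constant genes may share reads, and Tcrg-C4 had a difference of -0.56 that did not pass (adjusted p = 0.747). Blk, a Src kinase of gamma-delta cells, was higher at 28.5 to 46.8, 35.9-fold above BCL11b-ID2+. Sox13, a gamma-delta regulator, stood at 141, 94.0 and 5.94 against 2.39, 1.54 and 2.95 (34.9-fold, adjusted p = 0.00077). Library 4 of BCL11b+ID2+ thus held far less Sox13 than libraries 1 and 2, and the call was lost when only these 6 libraries were fitted (adjusted p = 0.0544).

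Chemokine and lipid homing receptors split, 7 of 21 tested higher and 5 lower out of 22 in the table. Ccr9, a receptor for the thymic and gut chemokine CCL25, stood at 1182, 2232 and 2163 against 98.2, 17.7 and 72.0 (29.7-fold, adjusted p = 1.07e-08). Ccr4, of type 2 and skin-homing cells, stood at 192, 317 and 399.7 against 18.6, 1.54 and 7.68 (32.7-fold, adjusted p = 0.000433). Cxcr4 and Cxcr6, receptors for CXCL12 and CXCL16, were 4.35-fold and 3.70-fold higher. Among those lower were receptors of type 1 and tissue-patrolling cells. Cx3cr1, the fractalkine receptor, stood at 30.3, 31.0 and 7.25 against 843, 925 and 988 (40.3-fold lower, adjusted p = 0.0014). Cxcr3 was 8.55-fold lower (adjusted p = 0.00575), except without library 2 of BCL11b+ID2+ (adjusted p = 0.0534). Ccr2 at 1310.3 to 1653 against 2126 to 2456 (adjusted p = 0.317) and Ccr8 at 247 to 438 against 785 to 987 (adjusted p = 0.301) did not overlap but did not pass.

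Integrins and other adhesion genes split too, with 3 of 20 higher and 4 lower. Itgb3, the beta3 chain, was higher at 4659, 6194 and 6348 against 442, 294 and 309 (16.5-fold, adjusted p = 7.59e-10). Itga4, the alpha4 chain of gut-homing cells and lymphoid precursors, was 3.33-fold higher. Itga1, the CD49a chain of tissue-resident NK cells and group 1 innate lymphoid cells, stood at 21.4, 13.3 and 13.2 against 1242, 1536 and 1379 (87.0-fold lower, adjusted p = 1.37e-05). Itgb1, its beta partner, was 3.40-fold lower (adjusted p = 0.000137). Itgax, the CD11c chain of dendritic and some NK cells, stood at 0, 2.21 and 5.28 against 236, 250.3 and 356 (113-fold lower, adjusted p = 6.69e-05). Itgae, the CD103 chain, stood at 1157, 1459 and 1681 against 3143, 4206 and 3420.1 and did not pass (adjusted p = 0.0733). Cd44, a DN1 marker, stood at 1794 to 2499.6 against 2240.3 to 2624 (adjusted p = 0.834).

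Notch and progenitor genes moved singly. Hey1, a Notch-responsive repressor, had 51.6, 111 and 93.6 against no reads and was at least 131-fold higher (adjusted p = 0.00191). Rbpj, the nuclear partner of Notch, was 3.26-fold lower at 110.4, 153 and 255 against 561, 610.4 and 518 (adjusted p = 0.00079). Dll1, a Notch ligand, was lower at 0 to 2.21 against 21.5 to 64.1 in limma (adjusted p = 0.00106) but not in edgeR (adjusted p = 0.0782) or DESeq2 (0.579). Among progenitor regulators 3 of 18 tested were higher and 3 lower: Gata2, of mast cell and stem cell programmes, had no reads against 40.7, 67.6 and 99.8 (at least 58.7-fold lower, adjusted p = 3.88e-05). Cd34, a stem cell antigen, was 20.4-fold lower (adjusted p = 0.00091), and Mycn, a Myc-family gene, was 13.2-fold higher (adjusted p = 0.00282). Checkpoint genes diverged too: Pdcd1, which encodes PD-1, was higher at 128, 90.7 and 31.0 against 5.99, 4.61 and 7.09 (14.1-fold, adjusted p = 0.00167). Lag3 was lower at 8.90, 0 and 6.59 against 222, 238 and 232 (44.6-fold, adjusted p = 0.000432). Of the circadian genes 2 of 13 were called, both higher, beside 6.03% of all genes tested called in either direction. They were Hlf and the clock repressor gene Nr1d1 (8.90-fold, adjusted p = 0.00066). A list of 13 is too short to set 2 calls apart from that share.

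Genes of other cell types moved with the gate. Of 15 macrophage and granulocyte markers tested out of 18 in the table, 7 were higher in BCL11b+ID2+ and 1 lower, and the summed level ran from 662 to 1841 against 201 to 328. Besides Mrc1, the complement genes C1qa, C1qb and C1qc and the macrophage receptors Csf1r, Mertk and Fcgr1 were higher. Csf1r, the macrophage growth factor receptor, stood at 217, 92.9 and 128 against at most 27.6 (12.8-fold, adjusted p = 0.00257), and C1qb at 301, 102 and 120.0 against 9.58, 0 and 0. Library 1 was highest of the BCL11b+ID2+ libraries for each of these 7 genes except Fcgr1. Adgre1, the F4/80 antigen, stood at 114, 45.3 and 53.4 against at most 16.8 (adjusted p = 0.0533), Cd68 and Lyz2 did not pass, and S100a9 was at 0 in both gates. DESeq2 did not call Fcgr1 (adjusted p = 0.0824). The C1qa and Mertk calls depended on single libraries: C1qa was lost without library 1 of BCL11b+ID2+ (0.0591) or library 4 of BCL11b-ID2+ (0.0562), and Mertk without library 1 or 4 of the former (0.0627 and 0.0539) or any library of the latter (0.0505 to 0.0578). The part of macrophages in the genes called higher was not tested, and without library 1 of BCL11b+ID2+ the contrast of BCL11b+ID2+ against BCL11b-ID2+ called 321 genes higher and 331 lower.

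Mast cell and basophil genes lay on the other side. Of 16 erythroid, megakaryocyte and mast cell markers tested out of 21 in the table, 8 were lower and 0 higher. All 8 were listed as markers of mast cells or basophils, although their transcripts need not be confined to those cells. The summed level ran from 177 to 374 against 2823 to 2953. Mcpt1, a mucosal mast cell protease, stood at 1.78, 17.7 and 5.94 against 457, 597 and 443 (59.0-fold lower, adjusted p = 0.000246). Mcpt2 stood at 0, 65.2 and 28.4 against 633, 584 and 689.7 (20.4-fold lower, adjusted p = 0.00167), and Cma1, the chymase gene, at 0, 4.42 and 0 against 232, 253 and 205 (156-fold lower, adjusted p = 1e-05). Cpa3, the mast cell carboxypeptidase, stood at 40.9, 35.4 and 9.23 against 439, 333 and 403 (13.7-fold lower, adjusted p = 5.09e-06). In the other gates its means were 817 in DN2, 809 in BCL11b+ID2- DN1 and 378 in BCL11b-ID2- DN1. In DN1 low for both reporters the Cpa3 mean was 37.0. A high Cpa3 level was therefore not particular to BCL11b-ID2+. DESeq2 did not call Mcpt2 (adjusted p = 0.268), Mcpt4 (0.118), Tpsb2 (0.655) or Ms4a2 (0.06), and edgeR did not call Ms4a2 (0.0635) or Mcpt8 (0.0551). Ms4a2 was also lost without library 2 of BCL11b-ID2+ (0.168) or any library of BCL11b+ID2+ (0.0532 to 0.0574), Mcpt8 without library 2 or 4 of the former (0.109 and 0.117) or any of the latter (0.0617 to 0.0653), and both with a pseudocount of 8 (0.0836 and 0.129) or the 6 libraries alone (0.0697 and 0.0684). Mcpt2 was lost with the 6 libraries alone (0.0563). The defining mast cell receptor genes were low even in BCL11b-ID2+, with Fcer1a at 8.98, 0 and 6.50 and Ms4a2 at 5.39, 29.9 and 4.13. Kit, a mast cell marker as well, was the higher one in BCL11b+ID2+. The part of mast cells in the genes called lower was not tested.

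Markers of dendritic, B, stromal and red cells were read beside the 6.03% of all genes tested that were called in either direction. Of 9 B-lineage markers tested, 1 was higher and 1 lower. Of 13 dendritic cell markers 1, Itgax, was lower, and the class II genes H2-Aa, at 39.6 to 90.8 against 256 to 317, and Cd74, at 47.5 to 133 against 276 to 605, did not pass (adjusted p = 0.431 and 0.435). Their summed levels ran from 378 to 525 against 1423 to 1893. Ighm, the immunoglobulin mu gene, was 26.5-fold lower at 24.9, 45.3 and 31.7 against 1049, 829 and 822 (adjusted p = 3.05e-09), and Cd79b, a B-cell receptor chain, was 7.16-fold higher, while Pax5 was at 0 in all 6 libraries and Cd79a reached 0.599. Stromal and epithelial markers had 0 of 8 called by limma, 0 at an unadjusted p below 0.05, 0 by edgeR and 0 by DESeq2. A list of 8 is too short to set 0 calls apart from the share of all genes. The levels of Hbb-bs, a globin gene, were 29.0 to 74.1 against 7.68 to 37.1 (adjusted p = 0.732).

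Sets of markers named after cell types were also summed, although their members are not confined to those cells. Il2ra, in the ILC2 set, had a mean of 7825 in DN2. Gzma, in the NK set, had a mean of 4968 in BCL11b+ID2- DN1. The 12 ILC2 markers summed to between 10137 and 10839.5 in BCL11b+ID2+ and between 1302 and 1466 in BCL11b-ID2+, with 6 of 10 tested higher and 0 lower. NK markers summed to between 861 and 1504 against 19198 to 23810.5, with 11 of 12 lower and Prf1 not called. The 10 lymphoid tissue inducer markers reached 876 to 1151 against 204 to 341, with 3 of 9 higher and 1 lower. Gamma-delta markers reached 5227 to 5773 against 2707 to 3550.2, with 7 of 10 higher and 1 lower. The sums mix abundant and rare genes and are not a count of cells.

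Growth and housekeeping genes were read beside the same share, 6.03% of all genes tested. In lists of 7 to 26 members 0 calls lie near that share and say little about the members. Replication and mitosis genes had 0 of 26 called by limma, 0 at an unadjusted p below 0.05, 0 by edgeR and 0 by DESeq2, and Mki67, a proliferation marker, stood at 2797, 2979 and 2163 against 3178, 2445 and 3581 (-0.21 ± 0.18, adjusted p = 0.719). The subunits of oxidative phosphorylation from the nuclear genome had 0 of 19 called (0, 0 and 0 in that order), and mitochondrial transcripts 0 of 10 (4, 0 and 0) with a median of 0.33. Interferon response genes had 0 of 20 (4, 0 and 0), MHC class I genes 0 of 14 (2, 0 and 1) and the Id and E protein genes 0 of 7 (0, 0 and 0). Immediate early and dissociation stress genes had 1 of 19, Dusp2, lower, and Fos stood at 119, 509 and 373 against 23.4, 132 and 72.6 (adjusted p = 0.243). Of 16 glycolysis genes, Pkm and Aldoa were 1.73-fold and 1.70-fold higher (adjusted p = 0.0132 and 0.0261). Pkm missed the threshold without library 2 of either gate (0.0905 for BCL11b+ID2+ and 0.0767 for BCL11b-ID2+), Aldoa without library 2 or 4 of BCL11b+ID2+ (0.108 and 0.152) or 1 or 4 of BCL11b-ID2+ (0.185 and 0.0857), and Dusp2 without any 1 of the 6 (0.0521 to 0.205). Aldoa and Dusp2 were also lost with scaling that leaves out mitochondrial genes (0.0546 and 0.0704) and with edgeR (0.0566 and 0.0529), Aldoa with the 6 libraries alone (0.0566) and Dusp2 without a filter (0.0783).

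**Figure D3:**
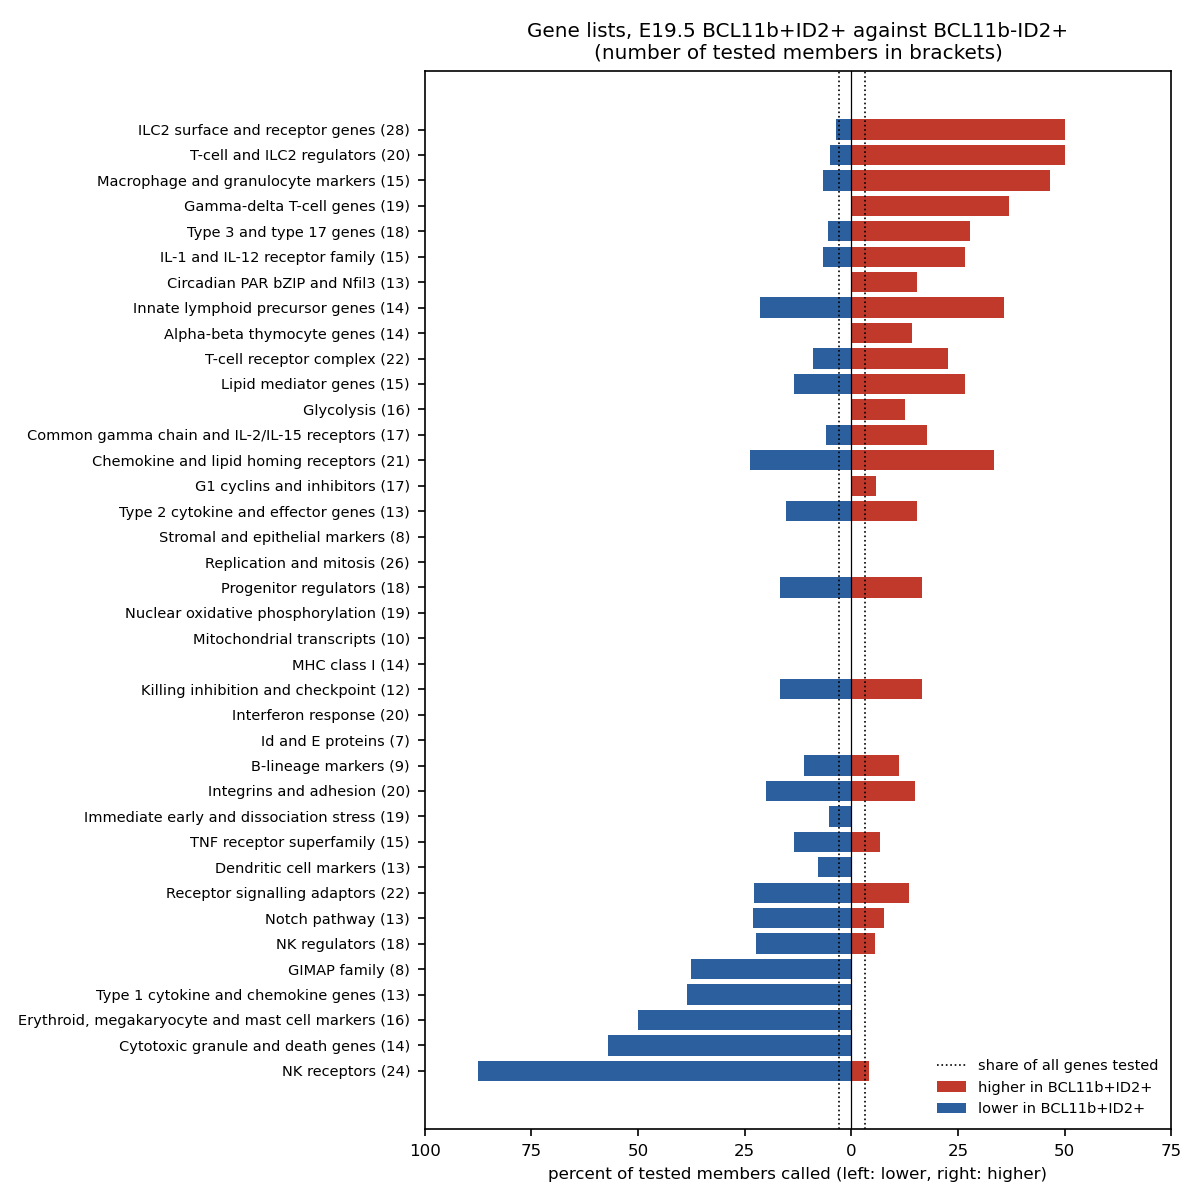
Each row is a gene list, with the number of tested members in brackets, and the bars give the percent of them called higher (red, to the right) and lower (blue, to the left) in BCL11b+ID2+. Dotted lines mark the share of all genes tested, 3.16% higher and 2.88% lower. The bars of ILC2 surface and receptor genes and of T-cell and ILC2 regulators, which include Bcl11b, reach farthest right. That of NK receptors reaches farthest left.

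The question of whether the BCL11b gate goes with the same transcripts when ID2 is absent was asked with the interaction, the difference given above minus that of BCL11b+ID2- against BCL11b-ID2-. The interaction passed for 1284 of 13840 genes (9.28%), 633 positive and 651 negative, and 390 of these were among the 835. The comparison without ID2, which shares no library with the one described here, called 2067 genes (14.9%). Of the 835 genes, 220 were called there in the same direction, 83 in the opposite one and 532 not at all, so the shared direction took 26.3% of the first list and 10.6% of the second. Bcl11b itself rose with the gate in both, with an interaction of -2.74 (adjusted p = 0.0157).

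Il2ra, Kit, Itga4 and Cysltr1 were higher in the BCL11b-positive gate with ID2 and lower in it without ID2. Il2ra, 9.88-fold higher here, stood at 83.3, 60.0 and 118 in BCL11b+ID2- against 243, 398 and 434 in BCL11b-ID2- (interaction 5.33 ± 0.45 SE, adjusted p = 3.55e-08). Kit stood at 198, 196 and 126 against 1123, 1199 and 849.9 without ID2 (interaction 4.87 ± 0.40), and Itga4 at 394, 402 and 276 against 3374, 3274 and 3296 (interaction 4.95 ± 0.28). The BCL11b+ID2- libraries lay below those of the reporter-negative gate for each. Cysltr1 was almost absent from BCL11b+ID2-, at 0, 5.36 and 2.77 against 53.7, 55.7 and 64.3 (interaction 9.59 ± 0.90). Il1rl1 was likewise near 0 in BCL11b+ID2-, with a mean of 0.615 (interaction 9.62, adjusted p = 1.01e-06). Selenop, a selenium carrier, and Deptor, an inhibitor of mTOR, had interactions of 4.16 ± 0.33 and 11.01.

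Gzma, Cd3g and Thy1 were lower in the BCL11b-positive gate with ID2 and higher in it without ID2. Gzma, 56.5-fold lower here, stood at 5371, 4333 and 5200.3 in BCL11b+ID2- against 41.5, 65.1 and 80.7 in BCL11b-ID2- (interaction -12.18 ± 0.44, adjusted p = 8.84e-15). Its lowest and highest gates thus changed places between the ID2 states. Cd3g stood at 767, 666 and 761 against 24.4, 6.51 and 35.5 without ID2 (interaction -6.59 ± 0.51), and Thy1 at 4103, 3454 and 3059 against 84.2, 193 and 102 (-6.02 ± 0.37). Rasgrp1, a Ras activator in T cells, was higher with BCL11b in both, at 1617, 1869 and 1428 against 915, 720.2 and 752 with ID2 and at 4800.2, 4931 and 3732 against 57.3, 21.0 and 70.1 without it (-5.59 ± 0.41). Ighm and Il2rb had interactions of -5.90 ± 0.47 and -6.38 ± 0.52. The adaptors of NK receptors showed no such dependence that passed: Tyrobp (interaction 0.08, adjusted p = 0.965) and Fcer1g (0.04, adjusted p = 0.984) were lower with BCL11b at a similar size with and without ID2, as was Ifitm1 (0.23 ± 0.84, adjusted p = 0.915). A p that misses the threshold does not show that the 2 differences are equal.

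**Figure D4:**
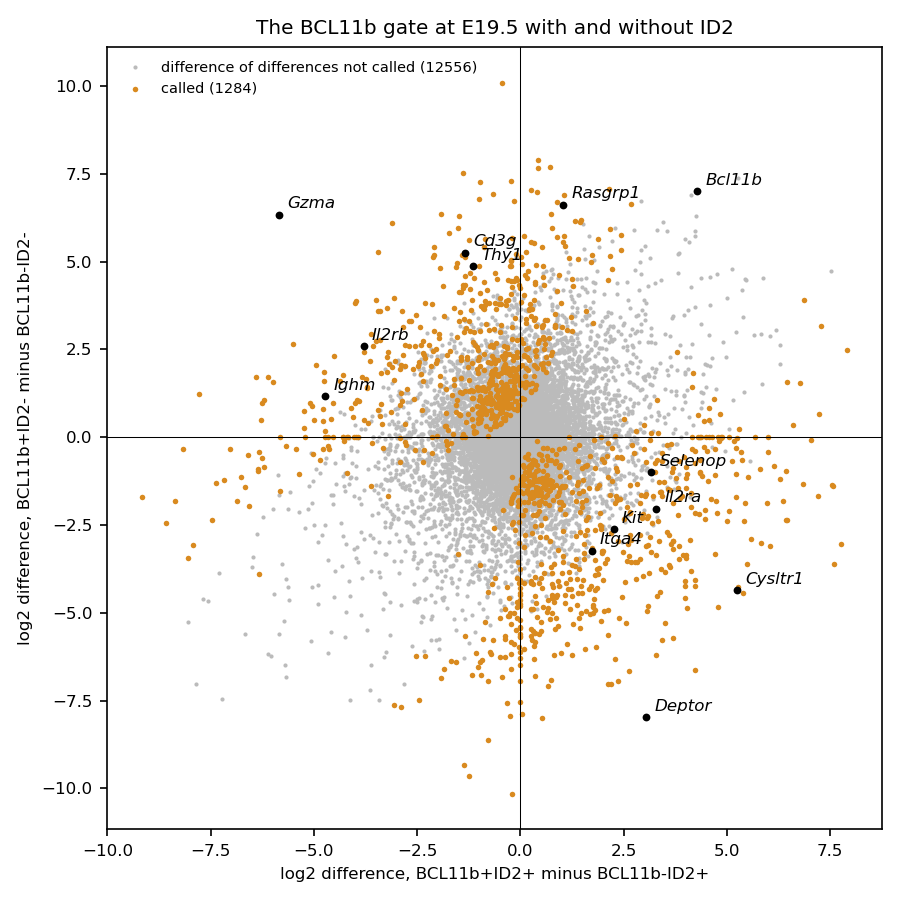
The log2 difference of the BCL11b gate among ID2-positive DN1 cells (x axis) is plotted against that among ID2-negative DN1 cells (y axis) for the 13840 genes, with the 1284 genes of a called interaction in orange. Bcl11b lies high on both axes, Gzma lies low on x and high on y, and Cysltr1, Il2ra and Kit lie high on x and low on y.

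The same gates had been sorted at E15.5, in 3 other libraries each and a table normalised on its own. There 8 of 10289 genes (0.0778%) passed in BCL11b+ID2+ against BCL11b-ID2+, a count that was 4 without library 3 of BCL11b+ID2+ or library 1 or 3 of BCL11b-ID2+, 5 without library 2 of the latter, and 0 with the 6 libraries alone (719 at an unadjusted p below 0.05 in limma, the sole tool run). Of the 835 genes called at E19.5, 583 were tested at E15.5, and 444 (76.2%) had the same sign, 214 of 306 higher and 230 of 277 lower. Among all genes tested at E15.5 the difference was positive for 40.7%, with a median of -0.44, so a negative sign was the commoner one there. The genes called higher at E19.5 had a median of 1.34 at E15.5, and those called lower -2.47. At an unadjusted p under 0.05, 149 of the 583 had the same sign and 4 the opposite one. Called at both stages, with the same sign, were 6 genes, Cpa3, Ncr1, Cd200r4, Dpp4, Tcrg-C1 and Tcrg-C2. The E19.5 call of Cd200r4 was lost without library 4 of BCL11b+ID2+ (adjusted p = 0.0534).

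Individual genes show how far the earlier libraries spread. Ncr1 stood at 0, 0.560 and 1.64 in BCL11b+ID2+ against 562, 1233 and 1053 in BCL11b-ID2+ at E15.5 (log2 difference -9.14, adjusted p = 0.0354), beside -7.18 at E19.5. Gata3 stood at 3742, 2161 and 3941 against 692, 729 and 720.1, without overlap, and did not pass (2.15, adjusted p = 0.427). Il1rl1 stood at 37.0, 1384 and 1189, library 1 of BCL11b+ID2+ lying below the 78.3 of library 1 of BCL11b-ID2+ (adjusted p = 0.543). Hlf stood at 3611, 3511 and 72.0 against 1.60, 25.8 and 3.78, with library 3 far below the others (adjusted p = 0.208). Cdk6, a G1 kinase gene, was called higher at E15.5 (adjusted p = 0.00217) and stood at 1047, 1129 and 986 against 1147, 969.7 and 851 at E19.5 (adjusted p = 0.912). Some genes called higher at E19.5 were not higher at E15.5, although 214 of 306 kept their sign. Mrc1 was at 0 in every E15.5 library of both gates. Vcam1, C1qc, Csf1r and Ly6a had E15.5 log2 differences of -2.41, -1.45, -3.71 and -4.75. None of these passed (limma adjusted p = 0.785, 0.868, 0.545 and 0.404). The difference between the stages was not tested, because their tables were normalised separately.

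**Figure D5:**
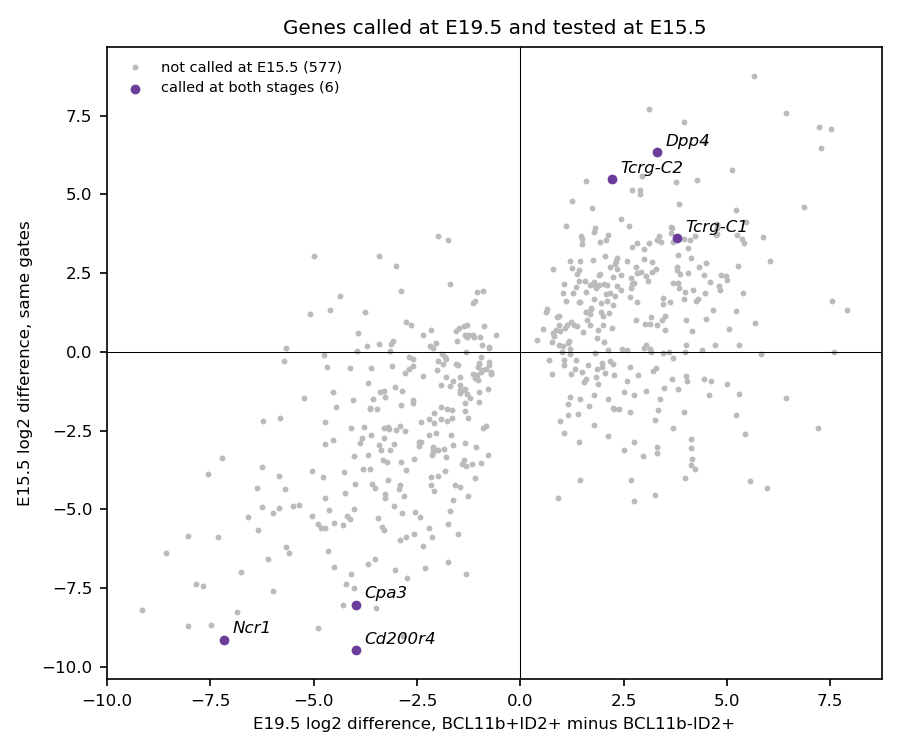
Log2 differences between BCL11b+ID2+ and BCL11b-ID2+ at E19.5 (x axis) and at E15.5 (y axis) are shown for the 583 genes called at E19.5 and tested at E15.5. The 6 genes called at both stages are purple and lie in the quadrants of equal sign, with Ncr1, Cpa3 and Cd200r4 below 0 and Dpp4, Tcrg-C1 and Tcrg-C2 above 0.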

How the data were processed

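RNA of sorted embryonic mouse thymocytes was sequenced in bulk, and the labels supply each library's stage and gate. The deposited signal values are read counts per gene that the authors normalised with DESeq, per the labels. The submitters' processing notes name Trim Galore 0.50, STAR 2.6.0a, DESeq2 1.18.1 and GRCm38; the counter, annotation and strand setting are not given in the sources used here, so reads of overlapping or similar genes cannot be separated. Dividing each library by its step gave whole reads for 100% of E19.5 values (tolerance 0.01), which supplied depths and counts for the alternatives.

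The main test was limma 3.58.1 (R 4.3.3) on log2(value + 1), with trend and robust variance, over all 6 populations of E19.5 (3 libraries per gate), Benjamini-Hochberg adjustment and a threshold of 0.05. Alternatives used edgeR 4.0.16, DESeq2 1.42.0, TMM scaling, a pseudocount of 8, other filters, weights and fewer libraries. The fits were checked on simulated data. Counting intervals (95%) and floors (3 reads) cover counting error only.

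The members and gene lists were chosen with earlier results of these data known. Named genes were the 15 per direction with the largest called difference, no overlap and a mean of 100 or more in the higher gate, without predicted, mitochondrial and ribosomal protein genes, the 6 per direction with the smallest interaction p under the same conditions, and members of the lists. Gene symbols came from a reference list matched to the deposited gene IDs, and promoter sequences from RefSeq (GRCm38.p6). A few list members are not reported here.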

Additional observations from a re-analysis of the deposited data

Results flagged for a closer look

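The difference between the BCL11b gates among ID2-positive DN1 cells differed from that among ID2-negative DN1 cells for 1284 genes (limma interaction test). Of these, 12 were flagged. The 6 with a positive interaction on the log2 scale were Itga4 (4.95, adjusted p = 4.78e-11), Selenop (4.16, adjusted p = 1.81e-08), Kit (4.87, adjusted p = 2.82e-08), Il2ra (5.33, adjusted p = 3.55e-08), Cysltr1 (9.59, adjusted p = 2.54e-07) and Deptor (11.01, adjusted p = 6.94e-07). The 6 with a negative one were Gzma (-12.18, adjusted p = 8.84e-15), Thy1 (-6.02, adjusted p = 2.08e-10), Rasgrp1 (-5.59, adjusted p = 6.31e-09), Cd3g (-6.59, adjusted p = 1.48e-08), Ighm (-5.90, adjusted p = 2.28e-08) and Il2rb (-6.38, adjusted p = 2.28e-08). They are the genes with the smallest interaction p among those called in the contrast, with 3 libraries in each of the 4 gates. In 11 of them the gate difference had opposite signs in the ID2 states, the exception being Rasgrp1, which was higher with BCL11b in both. The 12 were picked by their interaction p and do not stand for all called genes. Of the 835 genes called, 83 were called in the opposite direction among ID2-negative gates and 220 in the same one.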

How the results depend on the processing

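The 835 genes called in BCL11b+ID2+ against BCL11b-ID2+ at E19.5 became 663 with edgeR and 923 with DESeq2, of which 629 and 702 were among the 835, 976 with a pseudocount of 8, 872 without a filter, 847 with TMM scaling, 1170 with library weights, 1020 with the 6 libraries alone, and 568 to 683 without single libraries. The 1284 genes called for the interaction of the BCL11b and ID2 gates at E19.5 became 957 to 1655 in 7 other settings, and 949 to 1216 without each of the 12 libraries of its 4 gates in turn. Of 167 named or list genes called, 115 stayed called in each of 15 alternatives. The replicate block, which treats libraries of the same number as pairs, gave 948 genes; same-numbered libraries had deviations correlated at 0.13, 0.02 and 0.07, so the numbers were not taken as pairs. Each BCL11b+ID2+ library correlated best with the BCL11b-ID2+ library of its own number, a hint from the data and not from the design.

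At E15.5 the alternatives were chosen after seeing the data. The 8 genes in BCL11b+ID2+ against BCL11b-ID2+ became 19 with a pseudocount of 8, 5 without a filter, 0 with the 6 libraries alone (719 at an unadjusted p below 0.05 in limma) and 4 to 8 without single libraries; the cause was not tested. Depth limits genes with few reads, for which folds rest on a floor or a counting interval.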
